A study of Mus musculus with 8 samples.

Results

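Mouse epicardial cultures given PDGF-BB for 24 h were compared with the control culture, 1 array against 1 array out of the 8 arrays of the series. The question was which transcripts stood at another level at the end of a day with the ligand. All cultures came from hearts of E12.5 embryos on a mixed C57 background. Epicardial cells grew out of the hearts for 3 days, the hearts were then taken away, and the cells were kept for 2 further days. The 24 h culture was wild type and had 20 ng/ml PDGF-BB during the last 24 h before its RNA was taken. The control culture is labelled wild type and vehicle by genotype and treatment, but its source label names a control embryonic heart without the conotruncal region, so it was taken as a culture from its title and from the study's design. Another wild type culture, given vehicle during the 2 days (the vehicle culture), served as a check. Values are also given for a wild type culture with 20 ng/ml PDGF-BB for 12 h, for a wild type culture with 25 ng/ml bFGF, 10 ng/ml TGFb1 and 20 ng/ml PDGF-BB over 2 days (named the 3-factor culture), and for a culture carrying an epicardial tissue specific knockout of PDGF receptors a and b. The labels do not name the Cre driver of that knockout. The series also holds 2 arrays of whole E12.5 hearts, a control and an epicardial knockout of both receptors, which were normalized together with the cultures. Each culture array held RNA pooled from at least 3 cultures, so no group had a replicate. No spread between pools is known, and a difference between 2 arrays has no test.

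The epicardium is the mesothelial sheet on the surface of the heart, and during development some of its cells leave it by epithelial to mesenchymal transition (EMT) and become fibroblasts and mural cells of the coronary vessels. PDGF-BB is a dimer of PDGF B chains that binds the receptor tyrosine kinases PDGFRα and PDGFRβ and signals through the Ras, ERK, PI3K and PLCγ pathways. In cultured mesenchymal cells it is known as a mitogen and a chemoattractant, and ERK signalling is known to switch on early response genes such as the Egr and AP-1 factors together with phosphatases that limit the signal.

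Levels are background-corrected, quantile-normalized log2 intensities, and every difference is the 24 h level minus the control level on that log2 scale unless stated. A gene was counted as measured where the array's detection p-value fell under 0.01 in either culture, which held for 9698 of 19057 genes with a probe. A measured gene was called where its levels differed by at least 1, which is 2-fold, and it was detected on the brighter array. "Higher", "lower", "rose" and "fell" are used below of called genes, and other genes are given as values. For a gene without a detected probe in the dimmer culture, the fold against the detection limit is given as a bound, written "at least". The lowest level of a detected probe was 5.17 in the control culture, 5.25 at 12 h, 5.28 at 24 h, 5.41 in the vehicle culture, 5.57 in the 3-factor culture and 5.26 in the knockout culture, and any lower level printed below was not detected on its array.

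Among the called genes at 24 h were early response genes of receptor tyrosine kinase signalling, and the regulatory sequence in front of 2 of them is shown. The 2 were not chosen by their motif matches, and whether Egr3 and Hbegf hold a match is not reported here. Of the 4 genes called higher on the lists of immediate-early transcription factors and ERK feedback targets, Lif and Dusp5 have the promoter printed here, while Egr3 and Hbegf are named only. The sequences are from RefSeq on GRCm38.p6, run from 250 bases before to 50 bases after the annotated gene start, and are written 5′ to 3′ on the plus strand, which is the strand of both genes. The first lies at chr19:53528895-53529194 and the second at chr11:4257318-4257617. Capitals mark motif matches, searched on both strands: the CArG box, which is the binding motif of serum response factor, by its name, AP-1 as TGANTCA, and the cyclic AMP response element (CRE) as TGACGTCA.
Dusp5: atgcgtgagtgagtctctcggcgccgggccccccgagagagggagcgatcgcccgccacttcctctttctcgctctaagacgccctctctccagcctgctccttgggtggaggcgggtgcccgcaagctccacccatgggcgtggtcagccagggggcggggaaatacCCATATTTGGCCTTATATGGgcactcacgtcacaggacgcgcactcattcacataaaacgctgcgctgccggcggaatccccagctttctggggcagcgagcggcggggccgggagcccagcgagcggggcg
Lif: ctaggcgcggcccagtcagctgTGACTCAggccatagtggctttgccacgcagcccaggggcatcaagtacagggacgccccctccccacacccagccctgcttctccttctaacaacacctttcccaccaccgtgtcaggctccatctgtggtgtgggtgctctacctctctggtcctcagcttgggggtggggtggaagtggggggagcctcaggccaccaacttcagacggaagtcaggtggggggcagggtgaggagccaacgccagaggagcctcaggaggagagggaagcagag
The Dusp5 window holds 2 adjoining CArG boxes, CCATATTTGG and CCTTATATGG, which begin at positions -82 and -72 relative to the start. The Lif window holds 1 AP-1 match, TGACTCA, at position -228. Of all 32851 promoter windows in the table, 7.81% hold the AP-1 motif, 1.63% a CArG box and 1.79% the CRE. A match is a stretch of letters and not a measured binding site. A promoter window was found for 86 of the 119 called genes, 28 of them called higher.

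The 24 h and control arrays were close to each other. In all, 40 genes (0.412% of those measured) were called higher and 79 (0.815%) lower, together 119 genes or 1.23%. The median difference was -0.02, the median absolute difference was 0.202, and 87.01% of measured genes differed by under 0.5. Detection was similar, with 16661 probes detected in the control culture and 16022 at 24 h. Of the called genes, 4 of those higher had no detected probe in the control culture and 27 of those lower had none at 24 h. With these taken at their bound, 37 higher and 60 lower genes still differed by at least 1. A further detected probe existed for 27 called genes and had the direction of the call throughout in 26, with Ypel3 as the exception. The split depended on the processing: 22 genes were higher and 28 lower without background correction, 22 and 27 with an offset of 50, and 21 and 259 with median centring, which set the median of all genes at -0.253 and gave 56 higher and 93 lower relative to it. Of the 49 called genes that the naming rule gives, 23 kept their call under every alternative of background, normalization, values and probe, among them Sox9, Krt18, Sprr2k, Nppb, Mfsd2a, Xist, Sfrp2, Nppa, Eln, Lum, Pdlim3, Fam180a, Thbs2 and the globins, and 26 lost it under at least 1. The genes nearest the limit on the inside were Nrn1 (1.002), Fhl3 (1.004), Ypel3 (-1.001) and Osr1 (-1.005), and on the outside Pdlim2 (0.993), Arc (0.99), Slit3 (-0.998) and Acod1 (-0.996).

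**Figure D1:**
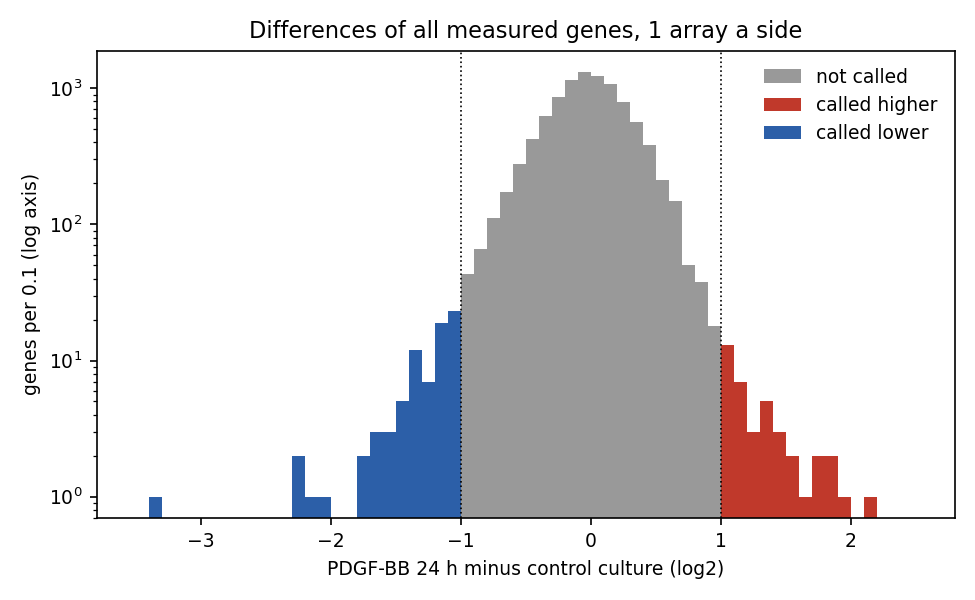
Number of genes (log axis) by the difference between PDGF-BB 24 h and the control culture, in steps of 0.1 on the log2 scale, with called genes in colour and dotted lines at differences of 1 and -1. The 40 higher and 79 lower genes lie in the tails of 9698 measured genes whose median is -0.02.

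The 2 untreated cultures differed from each other by far more than the 24 h culture did from the control culture. With vehicle minus control, 326 of 9757 measured genes (3.34%) were higher and 705 (7.23%) lower, together 1031 genes or 10.6%. The deposited processed values fall into 2 sets of 4 arrays, each set with a single distribution of values. The vehicle and 3-factor cultures and the 2 whole hearts are in 1 set, and the control, knockout, 12 h and 24 h cultures in the other. The sets also differ before normalization. The highest intensity was 45002 to 53266 on the arrays of the set with the control culture and 25863 to 27914 in the set with the vehicle culture. In the latter it was 26937 for the vehicle culture, 27914 for the 3-factor culture, and 25863 and 26136 for the hearts. Whether the sets were hybridized apart is not stated in the labels. Culture and set therefore cannot be told apart in any difference between vehicle and control. For 39 of the 40 genes called higher at 24 h the vehicle culture also lay above the control culture, by at least 1 in 29. For 77 of the 79 called lower it also lay below, by at least 1 in 66. Against the vehicle culture 362 of 9522 measured genes (3.80%) were higher at 24 h and 191 (2.01%) lower. The 24 h level was higher by at least 1 for 2 of the 40 genes above, Nes and Nrn1, and lower by at least 1 for 10. Of the 79, it was lower by at least 1 for 5 (Xist, Tek, Olfml1, Fggy and 6330403K07Rik) and higher by at least 1 for 10. The vehicle level is therefore printed below beside most called genes.

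PDGF receptors and ligands came first as the genes that the added protein acts on. No member of the 5 measured out of 6 was called. Pdgfra (Entrez gene 18595), the α receptor, had a level of 11.61 in the control culture, 11.08 at 12 h, 10.95 at 24 h, 10.21 in the vehicle culture, 8.47 in the 3-factor culture and 10.49 in the receptor knockout culture, so the 24 h level lay 0.65 below control and between the untreated cultures. Pdgfrb (Entrez gene 18596), the β receptor, was dimmer. It was at 6.12 in control, 6.44 at 12 h, 6.13 at 24 h, 6.18 with vehicle, 6.99 with 3 factors and 5.85 in the knockout culture. Its 24 h and control levels were the same to 1 decimal. The probes could not be placed against the deleted exons, so these levels do not check the knockout label. Of the ligands, Pdgfa differed by -0.35, Pdgfb by 0.16 and Pdgfc by -0.62, and Pdgfd was not detected on either array.

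Egr3, Hbegf, Lif and Dusp5 were the genes called higher among early response genes and targets of ERK signalling. Egr3 (Entrez gene 13655), a zinc finger transcription factor induced by growth factors, was at 5.45 in the control culture, 6.37 at 12 h, 7.31 at 24 h, 6.97 with vehicle, 6.65 with 3 factors and 5.61 in the knockout culture. It was 3.63-fold higher at 24 h than in control, and its 24 h level was the highest of the 6 cultures. Hbegf (Entrez gene 15200), a membrane-bound ligand of the EGF receptor, was at 8.55 in control, 9.32 at 12 h, 10.15 at 24 h, 9.27 with vehicle, 11.73 with 3 factors and 7.78 in the knockout culture, a 3.03-fold difference between 24 h and control. The 3-factor culture was its highest and the knockout culture its lowest. Lif (Entrez gene 16878), a cytokine of the IL-6 family, was at 5.96 in control, 6.70 at 12 h, 7.34 at 24 h and 7.29 with vehicle, a difference of 1.38, while its other detected probe differed by 0.89. The 24 h and vehicle levels of Lif differed by 0.05. Dusp5 (Entrez gene 240672), a nuclear phosphatase that inactivates ERK, was at 7.92 in control, 8.47 at 12 h, 9.06 at 24 h and 9.03 with vehicle, so that its 24 h level too matched vehicle within 0.1.

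With the mean of all probes of a gene, detected or not, Egr3 differed by 0.85, Hbegf by 0.85 and Lif by 0.54, and none was called. Egr3 and Hbegf had no other detected probe on these 2 arrays. With median centring Dusp5 differed by 0.88. Over the ERK feedback list, 15 of 22 genes were measured, and 3 were higher, beside 0.412% of all measured genes. None was lower, and 12 of the measured members lay above and 3 below 0. Their median was 0.62, against -0.02 over all measured genes, and the same members had a median of 0.24 for vehicle minus control. Among those not called, Etv4, an ETS factor downstream of FGF and ERK signalling, was at 8.52 in control, 8.88 at 12 h, 9.38 at 24 h and 8.75 with vehicle. Of the 26 immediate-early genes 18 were measured, 1 was higher (Egr3), none was lower, and the median was 0.27 at 24 h and 0.53 for vehicle minus control. Junb and Myc, which encode an AP-1 subunit and a growth regulator, differed by 0.77 and 0.57 without being called, and Ccn1, a matricellular protein of the early response, by 0.60. The classical first responders Fos (8.04 in control and 7.72 at 24 h) and Egr1 (11.69 and 11.65) were not called.

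Sox9 and several genes of secreted factors were higher as well. Sox9 (Entrez gene 20682), a transcription factor of cartilage and heart valve mesenchyme, was at 9.45 in control, 10.57 at 12 h, 11.18 with vehicle, 12.33 with 3 factors and 8.30 in the knockout culture. At 24 h it stood 1.55 above control, a 2.92-fold rise, and differed from vehicle by -0.18, its other detected probe differed by 0.99, and the control and knockout cultures were its lowest. Inhba, the βA subunit of activin, was at 8.76 in control, 9.56 at 12 h, 9.80 at 24 h and 10.62 with vehicle. Angptl4, a secreted inhibitor of lipoprotein lipase, rose by 1.46, from 8.16 to 9.62, with 9.13 at 12 h and 10.44 with vehicle. Nppb, the B-type natriuretic peptide, rose by 1.65, from 7.60 to 9.25, with 8.70 at 12 h and 10.10 with vehicle. The mean of all probes of Angptl4, which had no other detected probe, differed by 0.67, and Inhba by 0.80 with median centring. For Inhba, Angptl4 and Nppb the vehicle culture thus stood above the 24 h culture.

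**Figure D2:**
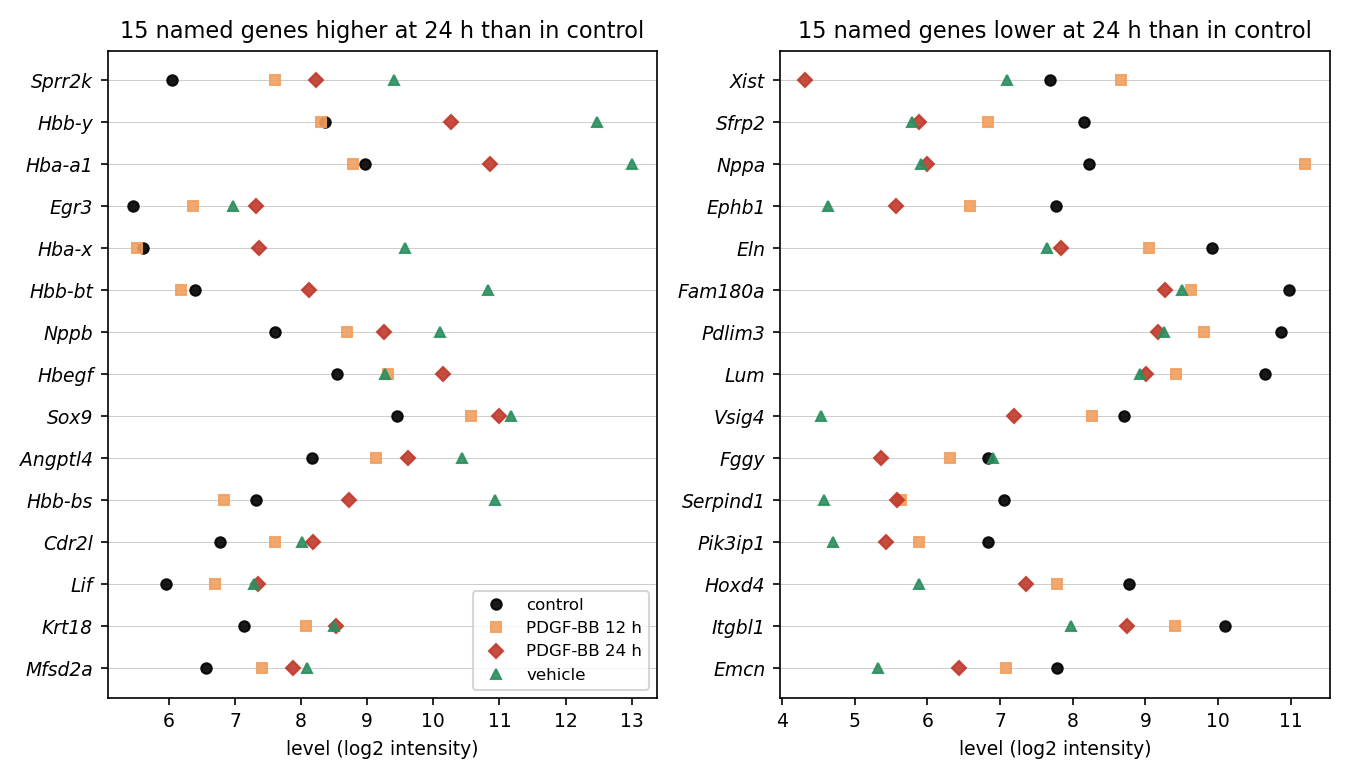
Levels (log2 intensity) in 4 cultures of the 15 named genes with the largest difference in each direction between PDGF-BB 24 h and control, 1 array per point. The 24 h point of Hbegf is at 10.15 and its vehicle point at 9.27, and globin genes have their vehicle point beyond the 24 h point.

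The keratins Krt8, Krt18 and Krt19 and the epithelial gene Sprr2k were higher at 24 h. Krt18 (Entrez gene 16668), a keratin of simple epithelia, was at 7.14 in control, 8.07 at 12 h, 8.52 at 24 h, 8.49 with vehicle and 7.33 in the knockout culture. Its partner Krt8 was at 8.88 in control, 9.55 at 12 h, 9.98 at 24 h and 10.39 with vehicle. Krt19 was not detected in control (4.87) and was at 5.99 at 24 h, at least 1.77-fold higher, while the vehicle culture had 7.43. Sprr2k, of the small proline-rich family of cornified epithelia, had the largest rise of any called gene, 2.16, from 6.05 in control to 8.22 at 24 h, with 7.61 at 12 h and 9.40 with vehicle. Krt8, which had no other detected probe, lost its call with the mean of all probes (0.53) and with median centring (0.86). Krt19 lost its call without background correction (0.65), with an offset of 50 (0.63) and with the authors' processed values (0.70). Over the 20 epithelial junction and keratin genes, 12 were measured, 9 of them detected in control and 12 at 24 h. Members undetected in control, Krt19 among them, thus counted as measured only through the 24 h array. The 3 keratins were higher, beside 0.412% of all measured genes, and Krt19 was short of 2-fold at its bound. The list median was 0.31, or 0.28 with undetected members at their bound, and 0.57 for vehicle minus control. Off that list, and chosen after their values were seen, the claudin Cldn10 and the ion transport regulator Fxyd3 were lower: both were undetected at 24 h, from 5.77 and 6.13 in control, at least 1.40-fold and 1.80-fold lower, with 4.62 and 4.71 with vehicle. Cdh1 and Epcam, which mark most epithelia, were not detected on either array.

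Of the 18 epicardial and mesothelial markers 14 were measured, 12 of them detected in control and 14 at 24 h. Their mean level was 9.07 in control and 9.10 at 24 h. The summed intensity of the list was 31428.1 in control, 26939.2 at 24 h, 20734.5 with vehicle and 7771.1 with 3 factors. Tcf21 was at 12.93 in control and 12.66 at 24 h, Upk3b at 13.20 and 12.93, Bnc1 at 11.10 and 10.74, and Msln at 12.11 and 11.88. These named members were thus at a high level in both cultures, and Tcf21 is also on the fibroblast list. Others were dimmer, such as Krt18 at 7.14 in control and Krt19, which was not detected there. The 3 keratins, which are shared with the epithelial list, were higher, beside 0.412% of all measured genes. No other member was called, 10 of the 14 lay below 0, and the median was -0.23. Lrrn4 and Gpm6a, surface proteins of mesothelium, differed by -0.78 and -0.73. Wt1 is not analysed here.

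Genes of EMT were mostly at the same level on both arrays. Of 24, 19 were measured, Sox9 alone was called, beside 1.23% of all measured genes, and the median was 0.04. Snai1, the transcription factor that represses E-cadherin, was at 6.66 in control, 7.05 at 12 h, 7.16 at 24 h and 8.0 with vehicle, a difference of 0.50. Twist1 differed by 0.18, Snai2 by -0.15, Zeb1 by -0.21, Vim by 0.34 and Fn1 by -0.02. Itga5, the α5 subunit of the fibronectin receptor, differed by 0.53, and none of 11 measured integrin subunits was called.

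Markers of mural cells gave a mixed picture. Cspg4 (NG2), a proteoglycan of pericytes that binds PDGF-AA, was at 6.44 in control, 7.67 at 12 h, 7.62 at 24 h and 7.89 with vehicle, so it was higher on all 3 arrays than in control. Des, the muscle intermediate filament, was at 10.30 in control, 10.86 at 12 h, 11.33 at 24 h and 12.22 with vehicle. Without background correction Cspg4 differed by 0.93, and with median centring Des differed by 0.82, so neither kept its call there. Other pericyte genes were not detected, among them Rgs5, Kcnj8 and Abcc9, and 6 of 17 were measured in all. Of these 6, 2 were higher, beside 0.412% of all measured genes. Of 20 smooth muscle contractile genes 15 were measured, 12 of them detected in control and 15 at 24 h. Members undetected in control thus counted as measured only through the 24 h array. Of the 15, 1 was higher (Des), beside 0.412% of all measured genes, and none was lower. The median was 0.35, or 0.27 with undetected members at their bound, and 0.58 for vehicle minus control. Acta2, smooth muscle actin, was at 15.11 in control and 14.95 at 24 h, Tagln at 10.89 and 11.29, and Myh11, smooth muscle myosin, was not detected in control (4.83) and at 5.44 at 24 h. Mylk, myosin light chain kinase, went the other way, at 12.71 in control, 12.13 at 12 h, 11.96 at 24 h and 10.92 with vehicle, without being called.

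Members of the lists of DNA replication and mitosis genes mostly lay above 0, but none of these members was called. Spc24, a kinetochore gene that is on no list and was noted after its values were seen, was higher. It was at 7.04 in control, 7.9 at 12 h, 8.08 at 24 h and 7.76 with vehicle, and its other probe differed by 0.44. Of 30 S phase genes 26 were measured, 25 lay above 0 and 1 below, and the median was 0.37, while it was 0.28 for vehicle minus control. Pclaf, a PCNA-binding protein, was at 7.44 in control, 7.95 at 12 h, 8.23 at 24 h and 8.66 with vehicle. Rrm2, the small subunit of ribonucleotide reductase, was at 7.49, 8.18, 8.25 and 8.83 in the same order. Gins2 of the replicative helicase differed by 0.69, and Pcna by -0.59 with a 24 h level that was not detected. Among 30 mitosis genes 18 were measured, 15 lay above 0, and the median was 0.41, against 0.46 for vehicle minus control. Birc5 (survivin) was at 10.24 in control, 10.58 at 12 h, 11.07 at 24 h and 10.72 with vehicle, the largest difference of that list at 0.83. Of 13 G1 regulators measured none was called, and Ccnd1, cyclin D1, was at 11.23 and 11.57. Genes of ribosome biogenesis were alike in this, with 15 of 16 measured members above 0, a median of 0.33 and none called. For vehicle minus control their median was 0.52. Ddx21, a nucleolar helicase, differed by 0.69 and Nop58, of the box C/D particle, by 0.53. A difference in the share of dividing cells and one in RNA per cell cannot be told apart in pooled cultures, and the same holds for every cell type below.

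Matrix genes were among the large decreases. Eln (Entrez gene 13717), elastin, was at 9.91 in the control culture, 9.05 at 12 h, 7.84 at 24 h, 7.64 with vehicle, 4.85 with 3 factors and 10.51 in the knockout culture. It was 4.21-fold lower at 24 h than in control, and both untreated cultures stood on either side of the 24 h level. Lum (Entrez gene 17022), lumican, a small leucine-rich proteoglycan of collagen fibrils, was at 10.65 in control, 9.42 at 12 h, 9.01 at 24 h, 8.93 with vehicle, 4.35 with 3 factors and 11.47 in the knockout culture, a 3.11-fold decrease from control to 24 h that a further probe also showed (-1.38). Fmod, fibromodulin, of the same family, fell by 1.18, from 7.50 to 6.32, with 6.74 at 12 h and 6.0 with vehicle. For Lum and Fmod the knockout culture (8.41 for Fmod) was the highest and the 3-factor culture (4.62) the lowest of the 6.

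The matricellular genes Thbs2 and Ccn5 were lower too. Thbs2, thrombospondin 2, was at 10.36 in control, 9.94 at 12 h, 9.32 at 24 h and 9.15 with vehicle. Ccn5, which is expressed in smooth muscle, was at 6.43 in control and 6.45 at 12 h and was not detected at 24 h, at least 2.22-fold lower. In all, 24 of the 37 genes on the list of non-collagen matrix were measured. Of these, 5 were lower and none was higher, beside 0.815% and 0.412% of all measured genes. Below 0 lay 19, and the median was -0.36, with -0.42 for vehicle minus control. Ogn, Prelp and Mfap5 differed by -0.85, -0.78 and -0.87 and were not called. Without background correction Ccn5 differed by -0.79 and Fmod by -0.91, so neither was called there. The abundant members Sparc, Bgn and Ccn2 differed by -0.15, -0.07 and 0.16. Matrix genes off the list, noted after their values were seen, were called both ways. Tinagl1 was higher, at 9.97 in control, 10.99 at 24 h and 11.16 with vehicle. Hmcn1 and Lamc3 were lower, undetected at 24 h from 6.44 and 6.08 in control.

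Collagens and the enzymes that remodel matrix gave a single call. Of 22 collagen genes 18 were measured, and 1 was higher, beside 0.412% of all measured genes: Col7a1, which forms anchoring fibrils under epithelia. It was at 6.55 in control, 7.56 at 12 h, 7.85 at 24 h, 8.34 with vehicle, 10.46 with 3 factors and 5.76 in the knockout culture. It lost its call with the mean of all probes (0.76), but had no other detected probe. Col1a1 was at 12.96 and 13.28 in control and at 24 h, Col3a1 at 9.18 and 9.15 and Col4a1 at 14.22 and 14.21. Col8a2 (-0.85) and Col18a1 (0.78) had the largest differences of those not called. Of 16 measured metalloproteinase and inhibitor genes none was called. Plaur, the urokinase receptor, differed by 0.70, Timp1 by 0.61 and Mmp3 by -0.67. The hyaluronan synthase Has2, at 6.22 in control, 6.49 at 12 h, 5.36 at 24 h and 5.70 with vehicle, differed by -0.86, and the versican-cleaving protease Adamts1 by 0.81.

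**Figure D3:**
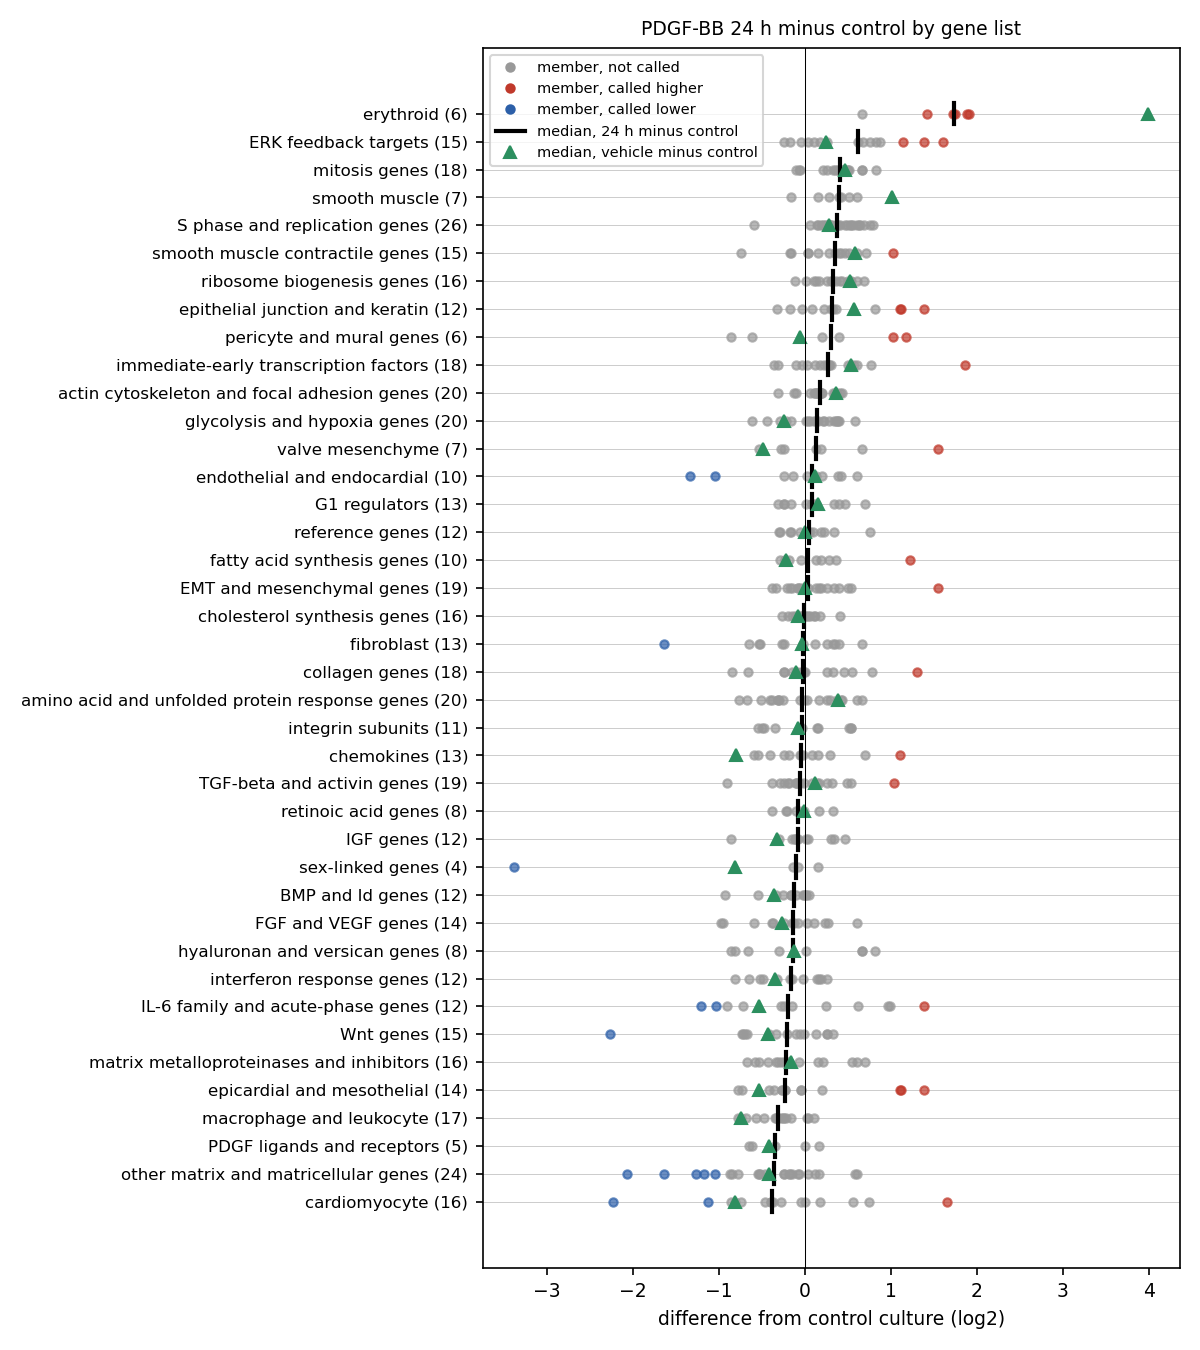
Difference from the control culture (log2) of each measured member of the gene lists at PDGF-BB 24 h (points), with the list median (black bar) and the median of the same members for vehicle minus control (triangle), and the number of measured members in brackets. ERK feedback targets have a median of 0.62 at 24 h and 0.24 with vehicle, and non-collagen matrix genes -0.36 and -0.42.

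Secreted regulators of Wnt, BMP and TGF-β signalling included a large decrease, that of Sfrp2. Sfrp2 (Entrez gene 20319), a secreted Wnt-binding protein, was at 8.15 in control, 6.83 at 12 h, 5.88 at 24 h, 5.79 with vehicle, 4.72 with 3 factors and 7.79 in the knockout culture. Its 24 h level was 4.82-fold below control and within 0.1 of vehicle, and the control and knockout cultures were its highest. No other of the 15 measured Wnt genes was called, where 1.23% of all measured genes were called. Rspo3, an enhancer of Wnt signalling, differed by -0.73. Bmp4 was at 11.96 in control, 11.32 at 12 h, 11.03 at 24 h and 11.40 with vehicle (-0.93). Fst, follistatin, which binds activin, was at 7.66, 7.31, 6.75 and 5.42 in that order (-0.91). Neither was called. Of 12 measured BMP and Id genes and 19 measured TGF-β and activin genes only Inhba was, beside 1.23% of all measured genes.

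Among angiogenic and growth factor genes, none of 14 measured members of the FGF and VEGF list and none of 12 of the IGF list was called. Fgf8, an FGF that is not on that list and was noted after its values were seen, was lower: it was at 6.36 in control, and was not detected at 12 h (4.88), at 24 h (4.97) or with vehicle (4.56), a fold of at least 2.11 between control and 24 h. Fgf16, an FGF of the embryonic heart, was at 6.35 in control, 5.61 at 12 h, 5.37 at 24 h and 6.77 with vehicle, just under the rule at -0.98. Vegfc, the lymphatic growth factor, was at 10.36, 9.60, 9.42 and 8.66 in the same order (-0.95). Igfbp3, which binds insulin-like growth factors, differed by -0.86. Retinoic acid genes differed little, with a median of -0.08 over 8 measured, and Aldh1a2, the retinoic acid synthase of the epicardium, was at 7.60 and 7.56.

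Receptors and cytoskeletal genes were among the other large decreases. Ephb1, a receptor tyrosine kinase for ephrin B ligands, was at 7.77 in control, 6.59 at 12 h, 5.57 at 24 h and 4.63 with vehicle, a 4.58-fold decrease at 24 h. The mean of all its probes differed by -0.47, but no other probe of Ephb1 was detected. Pdlim3, which binds α-actinin at the Z-disc, was at 10.87 in control, 9.80 at 12 h, 9.17 at 24 h, 9.26 with vehicle and 6.14 with 3 factors, and its other probe differed by -1.52. Pik3ip1, an inhibitor of PI3K, was at 6.84 in control, 5.88 at 12 h, 5.43 at 24 h and 4.71 with vehicle. Hoxd4, a homeobox factor, was at 8.77, 7.78, 7.36 and 5.89 in the same order. Without background correction Pik3ip1 differed by -0.94. For Ephb1, Pik3ip1 and Hoxd4 the vehicle culture lay below the 24 h culture. Itgbl1, an integrin-like secreted protein, fell by 1.35 by its brightest probe and by 0.34 by the other. Fam180a fell by 1.70, from 10.97 to 9.27, with 9.62 at 12 h and 9.50 with vehicle. Serpind1 (heparin cofactor II) fell from 7.06 to 5.59 and Fggy, a carbohydrate kinase, from 6.83 to 5.36, with 4.58 and 6.90 respectively in the vehicle culture, and Fggy differed by -0.97 without background correction.

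The lists of chemokines, IL-6 family and acute-phase genes and interferon response genes gave 2 higher and 2 lower calls, of which Lif is given above. These lists had 13, 12 and 12 measured members, and of all measured genes 0.412% were higher and 0.815% lower. Ccl12, a chemokine for monocytes, was at 6.78 in control, 7.25 at 12 h, 7.89 at 24 h and 7.30 with vehicle. Saa3, an acute-phase protein, was at 12.61 in control, 12.28 at 12 h, 11.40 at 24 h and 6.26 with vehicle, so the untreated cultures were its highest and its lowest. Il33, an alarmin, was at 6.13 in control and was not detected at 24 h, at least 1.79-fold lower. Hp, haptoglobin, differed by 0.99 and Ptx3 by -0.91 without being called, and of 12 measured interferon response genes none was called. Without background correction Ccl12 differed by 0.91 and Il33 by -0.62. Further immune genes off the lists, chosen after their values were seen, were lower: the cytokine Il18 went from 8.34 in control to 7.10 at 24 h, the checkpoint ligand Cd274 from 8.16 to 6.92 and the cytokine receptor Il31ra from 7.10 to 6.07, with 6.29, 6.43 and 5.70 with vehicle. Macrophage and leukocyte markers were detected in both cultures, 17 of 19 with a probe in control and 16 at 24 h. None was called, 14 of 17 measured lay below 0, and the median was -0.32, or -0.28 with undetected members at their bound. The summed intensity of the list was 61239 in control, 47923 at 24 h and 25294 with vehicle. Adgre1, a surface receptor of macrophages, was at 9.62 in control and 8.83 at 24 h, and Csf1r, their growth factor receptor, at 10.00 and 9.31. Vsig4, a complement receptor of macrophages that is on no list here, was lower, at 8.71 in control, 8.26 at 12 h, 7.19 at 24 h and 4.54 with vehicle. The part of these cells in the inflammatory and matrix differences was not tested.

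The lists of metabolic genes gave 1 call, where 1.23% of all measured genes were called. Scd2, a stearoyl-CoA desaturase, was at 6.16 in control, 6.85 at 12 h, 7.38 at 24 h and 6.71 with vehicle, differed by 0.92 without background correction, and was the only called gene among 10 measured of fatty acid synthesis, 16 of cholesterol synthesis, 20 of glycolysis and hypoxia and 20 of amino acid synthesis and the unfolded protein response. The medians of these lists were 0.04, -0.01, 0.14 and -0.03. Aldoc, a glycolytic aldolase that is not on the list and was noted after its values were seen, was at 7.82 in control, 6.78 at 12 h and 5.57 with vehicle, and differed by -1.31 between 24 h and control, a call of lower. Mfsd2a, a transporter of lysophospholipids that is on none of the lists, was at 6.56 in control, 7.41 at 12 h, 7.88 at 24 h, 8.09 with vehicle and 9.42 with 3 factors. None of 12 measured reference genes was called, although Tfrc, the transferrin receptor, differed by 0.76.

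Globin genes were higher at 24 h, and their levels followed no order of treatment. Hba-a1, adult α-globin, was at 8.97 in control, 8.79 at 12 h, 10.85 at 24 h, 13.01 with vehicle, 4.43 with 3 factors and 5.12 in the knockout culture. Hbb-y, an embryonic β-like globin, was at 8.36, 8.30, 10.27, 12.47, 4.63 and 5.10 in the same order. Hba-x, Hbb-bt and Hbb-bs rose by 1.75, 1.72 and 1.42, where Hbb-bt and Hbb-bs are near-identical copies whose signals may not be separable. The control and 12 h levels differed by under 0.5 in all 5, and the 24 h culture lay between them and the vehicle culture. Of 13 erythroid genes 6 were measured on these 2 arrays, and 5 were higher, beside 0.412% of all measured genes. The summed intensity of the list was 1104 in control, 979 at 12 h, 3964 at 24 h and 18558 with vehicle. Alas2, the heme synthesis enzyme of red cells, differed by 0.66, and Gata1, Klf1 and Epb42 were not detected on either array. The part of red cells or their RNA in any other difference was not tested.

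Cardiomyocyte genes moved both ways. Nppa (Entrez gene 230899), the atrial natriuretic peptide, was at 8.23 in control, 11.19 at 12 h, 6.0 at 24 h, 5.92 with vehicle, 4.75 with 3 factors and 4.60 in the knockout culture, so it was 4.69-fold lower at 24 h than in control while the 12 h culture was its highest. Myl3, a ventricular myosin light chain, was at 7.36 in control, 5.87 at 12 h, 6.23 at 24 h and 5.85 with vehicle, and it differed by -0.86 without background correction. Of the 25 markers 16 were detected in control, 13 at 24 h and 11 with vehicle. Among the 16 measured, 2 were lower and 1 was higher (Nppb, given above), beside 0.815% and 0.412% of all measured genes. Their median was -0.38, or -0.28 with undetected members at their bound. Myl7, an atrial light chain, was at 11.68 on both arrays, and Myh7, Ttn and Ryr2 were not detected on either. The summed intensity of the markers was 6558 in control and 6639 at 24 h. Their part in the other differences was not tested.

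Endothelial genes gave 2 decreases. Emcn, endomucin, was at 7.78 in control, 7.08 at 12 h, 6.44 at 24 h and 5.32 with vehicle, and Tek, the angiopoietin receptor, was at 7.93 in control, 7.34 at 12 h, 6.88 at 24 h and 8.91 with vehicle, so the 24 h culture was the lowest of these 4 for Tek. The defining markers Pecam1, Cdh5, Kdr and Cldn5 were not detected on either array. In all, 10 of 19 markers were measured, with a median of 0.08, and 2 were lower, beside 0.815% of all measured genes. Among neural markers Prph alone was measured. It was at 6.0 in control and was not detected at 24 h, at least 1.65-fold lower, with a difference of -0.63 without background correction, and Sox10, Tubb3 and Th were not detected on either array.

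Xist (Entrez gene 213742), the non-coding RNA of the inactive X chromosome of female cells, had the largest difference of all measured genes. It was at 7.69 in control, 8.67 at 12 h, 7.10 with vehicle, 6.08 with 3 factors and 9.26 in the knockout culture, and was not detected at 24 h (4.32), at least 5.32-fold below control, with -3.00 for a further probe. The Y-linked genes Eif2s3y (7.95 in control and 7.82 at 24 h), Kdm5d (5.93 and 5.85) and Uty (5.27 and 5.42) were detected in both. The 24 h pool thus gave Y-linked signal and no detected Xist, and the sex of the embryos and the treatment cannot be told apart on these 2 arrays.

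A further 2 pairs of arrays, which share no array with 24 h and control, were set beside that comparison. In the pair PDGF-BB 12 h minus vehicle, 432 of 9605 measured genes (4.50%) were higher and 227 (2.36%) lower. Among 9304 genes measured in both pairs, 39 were called higher at 24 h, and of these 1 (2.56%) was also higher in the pair with 12 h, which is 0.235% of the 425 higher there, while the background share was 4.57%. The opposite call was made for 14 of the 39 (35.9%), beside a background of 1.86%. Of 70 called lower at 24 h, 2 (2.86%, or 1.16% of 173) were also lower, beside 1.86%, and 28 (40.0%) were higher, beside 4.57%. Over all 9304 genes the differences of the pairs had a Pearson r of -0.379 and a Spearman rho of -0.354. The 24 h difference rests on the control array and the 12 h difference on the vehicle array, and the 12 h and vehicle arrays belong to different sets of the processed values. The genes called the same way in both pairs were Nrn1, Olfml1 and Tek. Nrn1 (neuritin), a membrane-anchored protein of growing neurites, was at 6.30 in control, 7.10 at 12 h, 7.30 at 24 h, 5.26 with vehicle, 6.60 with 3 factors and 4.95 in the knockout culture. The treated cultures were thus above all 3 cultures without added ligand. Olfml1, an olfactomedin-like protein, was at 6.60 in control, 5.34 at 12 h, 6.38 with vehicle, 4.57 with 3 factors and 6.11 in the knockout culture, and was not detected at 24 h (5.0), at least 2.49-fold lower. Its 3 cultures with PDGF-BB were below the 3 without. Without background correction Nrn1 differed by 0.76 and Tek by -0.87 between 24 h and control, and with an offset of 50 Olfml1 by -0.99, so that none of the 3 kept its call in all settings.

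The other pair, 3 factors minus vehicle, lies within 1 set of the processed values and also contains PDGF-BB, with TGFb1 and bFGF added. In that pair 486 of 9183 measured genes (5.29%) were higher and 464 (5.05%) lower. Among 8861 genes measured in both pairs, 9 of the 39 called higher at 24 h (23.1%, or 2.13% of 422) were higher with 3 factors too, beside a background of 4.76%, and 10 (25.6%) were lower, beside 5.16%. Of the 46 called lower, 14 (30.4%, or 3.06% of 457) were lower too, beside 5.16%, and 7 (15.2%) were higher, beside 4.76%. Calls in either direction were thus more frequent among these genes than among all, and over all genes the differences had a Pearson r of -0.05 and a Spearman rho of -0.098.

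The 9 genes higher in both were Hbegf, Col7a1, Sox9, Sfn, Nrn1, Mfsd2a, Serinc2, Inhba and Ccl12. Hbegf differed by 1.60 at 24 h and by 2.46 with 3 factors, Col7a1 by 1.30 and 2.12, and Sox9 by 1.55 and 1.16. Of the 14 lower in both, those with the largest difference with 3 factors were Lum (-1.64 at 24 h and -4.58 with 3 factors), Fam180a (-1.70 and -4.22), Pdlim3 (-1.70 and -3.13) and Eln (-2.07 and -2.79). Lum, Fam180a and Eln were not detected in the 3-factor culture, where they were at least 10.3-fold, 15.2-fold and 4.21-fold below vehicle. The others were Cfap299, Agtr1a, Olfml1, Fmod, Alcam, Il31ra, Nppa, Hoxd4, Sfrp2 and Xist. Of these, Il31ra, Sfrp2, Hoxd4, Nppa, Fmod and Olfml1 were also undetected with 3 factors, where the bound was short of 2-fold, from 1.10-fold for Il31ra to 1.76-fold for Olfml1. With detection required on both arrays, the count of 14 became 2. Agtr1a, the angiotensin II receptor, was at 9.05 in control, 7.66 at 12 h, 7.75 at 24 h, 6.66 with vehicle and 4.32 with 3 factors. The globins had opposite calls: Hba-a1, at 1.88 at 24 h, was not detected in the 3-factor culture, at least 174-fold below vehicle.

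**Figure D4:**
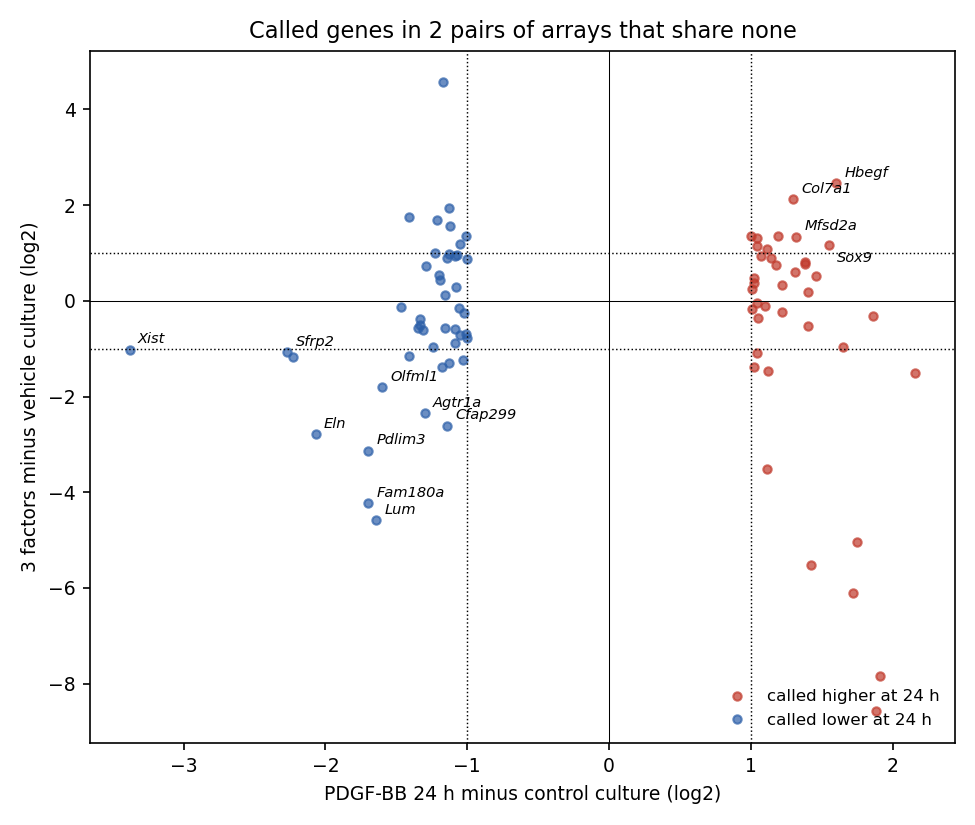
The 85 called genes that were also measured with 3 factors or vehicle, by their difference at PDGF-BB 24 h minus control (horizontal, log2) and 3 factors minus vehicle (vertical, log2), with dotted lines at 1 and -1. Lum, Fam180a, Pdlim3 and Eln lie low on both axes, Hbegf and Col7a1 high on both, and the points below -5 among the genes higher at 24 h are globins.

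A fit that took both untreated cultures as a group of 2 left 1 residual degree of freedom. Its residual is the difference between the vehicle and control cultures, which lie in different sets of the processed values. Between these 2 cultures 10.6% of measured genes were called. The fit therefore cannot decide whether PDGF-BB changed a gene, and no conclusion is drawn from it. In limma, 0 of 9906 genes reached an adjusted p under 0.05 (smallest adjusted p 0.9998), and 18 genes (0.182%) had an unadjusted p under 0.05, 9 of them higher and 9 lower at 24 h. With the 12 h and 24 h cultures as a treated group of 2, limma gave 0 of 9999 and 171 in the same way.

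Several called genes lie outside the naming rule and were chosen after their values were seen. Errfi1, a feedback inhibitor of the EGF receptor, was at 9.91 in control, 10.74 at 12 h, 11.23 at 24 h, 10.77 with vehicle, 11.38 with 3 factors and 9.26 in the knockout culture. Nes, nestin, an intermediate filament of progenitor cells, was at 8.96 in control, 9.57 at 12 h, 10.18 at 24 h, 9.16 with vehicle, 9.50 with 3 factors and 7.80 in the knockout culture, and its other probe differed by 1.23. The 24 h culture was the highest of the 6 for Nes, and it was 1.22 above control and 1.02 above vehicle. Sfn, stratifin, an adaptor protein of epithelia, was at 5.76 in control, 6.95 at 24 h and 8.04 with vehicle. Apoe, the lipid carrier, was at 11.66 in control, 11.38 at 12 h, 10.47 at 24 h and 10.58 with vehicle.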

How the data were processed

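RNA of 8 pools was hybridized to 8 Illumina arrays, 1 array a group; groups follow the labels. For 45281 probes the authors deposited the intensity before normalization with its detection p-value, exported with BeadStudio 3.3 per the submitters' processing notes, and a processed linear intensity. The processed values have identical distributions within 2 sets of 4 arrays, by a method not given in sources used here. All values reported start from the deposited non-normalized intensity. With limma 3.58.1 in R 4.3.3, neqc estimated background from the detection p-values, added an offset of 16, quantile-normalized the 8 arrays and took log2. A single gene symbol was given for 34885 probes, several for 18 and none for 10378, and each of 19057 genes took its probe with the highest mean level. The number of arrays limits the precision, as does signal near background for dim genes. A difference of at least 1 with detection on the brighter array made a call. For a gene undetected on the dimmer array, the bound is against the lowest level of a detected probe there, or its own level if higher.

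Groups of 1 have no test. limma (lmFit, eBayes, Benjamini-Hochberg) was run only where the untreated cultures formed a group of 2. The methods were tested on simulated data. There, differences were planted only in bright genes detected on every array, and the untreated cultures had no difference in expected level. The simulation therefore says nothing of error from the culture or the set in the real arrays. The 41 lists, the members and the tests were chosen with earlier results of these data known. Named genes are the PDGF family, the 15 called genes with the largest difference in each direction (RIKEN, predicted and clone names left out), genes called the same way in 12 h minus vehicle, and the called members plus up to 4 others of each list. Alternatives to background correction, normalization, values, probe, detection filter, size and untreated culture are in the closing section. Motifs were searched in RefSeq promoters (GRCm38.p6). Python 3.11.15, numpy 2.4.6, pandas 2.3.3 and matplotlib 3.10.9 made summaries and figures.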

Additional observations from a re-analysis of the deposited data

Results flagged for a closer look

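Nppa differed by -2.23 between PDGF-BB 24 h and control, while the 12 h culture stood 2.96 above control, with levels of 8.23 in control, 11.19 at 12 h and 6.0 at 24 h. It drew attention because the calls at the 2 times go in opposite directions against the same control array, and the difference between the times was not tested. Among 2240 measured probes without a single gene symbol, which the comparison of genes does not use, 12 were called higher and 9 lower at 24 h, with differences between -1.63 and 1.68.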

How the results depend on the processing

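No paired analysis was possible because each group had 1 array and no replicate numbers are shared. Of 40 higher and 79 lower genes, there were 22 and 28 without background correction, 22 and 27 with an offset of 50, 23 and 34 from the authors' processed values, 21 and 259 with median centring, 327 and 504 at 1.5-fold, and 362 and 191 (3.80% and 2.01%) against the vehicle culture; detection on both arrays left 52 lower, by its construction. Median centring put the median of all genes at -0.253, and relative to that 56 were higher and 93 lower. The share of higher calls, 33.6% in the main setting, was 44.0% without background correction, 44.9% with offset 50, 7.50% with median centring and 65.5% against vehicle. Normalizing 4 arrays only gave 49 and 99, the mean of probes 29 and 56, and other detection filters 40 and 79. Genes higher in both 24 h minus control and 12 h minus vehicle (1) were 0 without background correction, with offset 50, with median centring, with the authors' values and with detection on both arrays, 2 with the mean of probes and 28 at 1.5-fold; those lower in both (2) were 0 without background correction, with offset 50 and with the authors' values, 1 with detection on both arrays and 19 at 1.5-fold. With 3 factors minus vehicle, those higher in both (9) were 4 without background correction, with offset 50, with median centring, with the authors' values and with the mean of probes, and 67 at 1.5-fold; those lower in both (14) were 6 without background correction, with offset 50 and with the authors' values, 42 with median centring, 2 with detection on both arrays and 104 at 1.5-fold. limma gave 0 genes at an adjusted p under 0.05 in each setting, with 10 to 182 at an unadjusted p under 0.05. Of 49 named called genes, 34 to 41 kept their call under the background, centring, value and probe alternatives, all 49 with 4 arrays only, and 5 against vehicle, where 11 kept only the direction and 33 turned: Sprr2k -1.19, Hbb-y -2.20, Hba-a1 -2.15, Hba-x -2.21, Hbb-bt -2.71, Hbb-bs -2.21, Nppb -0.86, Sox9 -0.18, Angptl4 -0.82, Mfsd2a -0.21, Des -0.89, Cspg4 -0.27, Col7a1 -0.49, Inhba -0.82, Krt19 -1.43, Krt8 -0.41, Sfrp2 0.09, Nppa 0.07, Ephb1 0.94, Eln 0.19, Lum 0.08, Vsig4 2.65, Serpind1 1.01, Hoxd4 1.47, Pik3ip1 0.73, Itgbl1 0.76, Emcn 1.13, Thbs2 0.17, Ccn5 0.46, Fmod 0.33, Saa3 5.14, Myl3 0.38 and Prph 0.37. The cause of these changes was not tested. Signal close to background limits the dim genes.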

Other observations

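Called genes on none of the lists, chosen after their values were seen, included further transcripts of the cell surface, the complement system and organelles. Calr, the endoplasmic reticulum chaperone calreticulin, was at 9.66 in control, 10.25 at 12 h, 10.66 at 24 h and 10.41 with vehicle. Rhoc, a small GTPase of cell movement, was at 10.06 in control, 10.66 at 12 h, 11.09 at 24 h and 11.32 with vehicle, and its other probe differed by 0.55. Sox11, a transcription factor of progenitor cells, was at 6.68, 7.40, 7.75 and 9.02 in the same order. For Calr the 24 h culture was the highest of these 4, and for Rhoc and Sox11 the vehicle culture was. Alcam, an adhesion molecule of the immunoglobulin family, was lower, at 9.94 in control, 8.95 at 12 h, 8.81 at 24 h and 7.44 with vehicle. Neat1, the non-coding RNA of paraspeckles, was at 9.54, 8.81, 8.45 and 8.13 in that order, and C1s1, a complement protease, at 7.22, 6.55, 6.06 and 5.13. For Alcam, Neat1 and C1s1 the control culture was the highest of the 4 and the vehicle culture the lowest. Hoxd3, a neighbour of Hoxd4 in the HoxD cluster, was at 6.26 in control and 5.30 at 12 h and was not detected at 24 h, at least 1.97-fold lower. Fpr2, a formyl peptide receptor of myeloid cells, was at 9.13 in control, 8.46 at 12 h, 7.96 at 24 h and 8.89 with 3 factors, and was not detected in the vehicle culture.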
